A study of Mus musculus with 12 samples.

Results

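The genes described here are Ifitm1, Ifitm2 and Ifitm3, 3 interferon-induced transmembrane genes that lie close together on mouse chromosome 7. They are 3 of the 14907 genes listed, and were found by their symbols. All of them had a value in each of the 12 libraries and passed the filter for testing, as 12385 genes did. They were chosen because Ifitm1 had far lower values in untreated MyD88ko cells than in untreated wt cells, so that contrast is given as values only, for all 3 genes.

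The libraries came from mesenchymal cells of the small intestine of C57/Bl6 mice, the connective-tissue cells under the gut epithelium, grown as primary cultures to passage 3, sorted on GFP and kept without serum overnight. There were 4 groups of 3 libraries, namely MyD88ko cells given 2 µg/ml of E. coli LPS for 6 hours (MyD88ko LPS), wt cells given the same (wt LPS), untreated MyD88ko cells and untreated wt cells. MyD88ko cells are labelled ColVIcre-MyD88F/F-RosamTmG, meaning that floxed MyD88 alleles were cut by a Cre under a collagen VI promoter, active in only a subset of mesenchymal cells, beside a reporter that turns on GFP after Cre acts. The wt cells share the floxed alleles and the reporter, and their genotype label, MyD88F/F-RosamTmG, names no Cre, although the design text calls them ColVIcre+. If that label holds, loss of MyD88 cannot be told apart from presence of Cre or from how the cells were selected. Without Cre the reporter would not turn on GFP, so that label is at odds with wt cells sorted for GFP. Nothing given says whether replicates came from separate animals, so the p-values measure the spread between these libraries. The library codes of the LPS samples belong to a later number series than those of the untreated samples, so that the treatment and that series cannot be told apart, whereas each genotype comparison lies within a series.

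LPS, from the outer membrane of Gram-negative bacteria, is sensed by TLR4. That receptor signals through MyD88, which leads to NF-κB, and through TRIF, which leads to IRF3 and type I interferon. Interferon receptors act through JAK kinases and the transcription factors these switch on, which bind response elements near target genes. The Ifitm genes are such targets. They encode small membrane proteins that hinder the fusion of viruses with the membranes of the cell, at the cell surface mostly for IFITM1 and in endosomes mostly for IFITM2 and IFITM3, as known for the human proteins.

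The promoters of the 3 neighbours are shown as a description. Shared stretches were sought after the values were seen, and their relation to the values was not tested. The sequences are those of RefSeq on GRCm38.p6, from 250 bases before to 50 bases after the annotated start, read 5′ to 3′ on the strand of the gene. Capitals mark every stretch of at least 10 identical bases that a window shares with that of another member on the same strand. The Ifitm1 window is chr7:140967826-140968125 (plus strand), the Ifitm2 window chr7:140955912-140956211 (minus strand) and the Ifitm3 window chr7:141010695-141010994 (minus strand).
Ifitm1: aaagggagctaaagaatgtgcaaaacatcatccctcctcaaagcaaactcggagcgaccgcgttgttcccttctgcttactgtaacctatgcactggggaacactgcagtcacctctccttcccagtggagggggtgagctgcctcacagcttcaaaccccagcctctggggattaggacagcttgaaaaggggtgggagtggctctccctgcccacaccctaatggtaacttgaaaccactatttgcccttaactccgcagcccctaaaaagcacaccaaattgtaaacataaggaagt
Ifitm2: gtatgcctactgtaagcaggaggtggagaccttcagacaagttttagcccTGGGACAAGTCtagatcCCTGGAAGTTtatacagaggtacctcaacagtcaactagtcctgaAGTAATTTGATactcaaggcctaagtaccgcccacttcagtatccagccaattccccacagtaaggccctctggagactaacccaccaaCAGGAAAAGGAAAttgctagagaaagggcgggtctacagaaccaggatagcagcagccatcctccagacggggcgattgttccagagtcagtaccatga
Ifitm3: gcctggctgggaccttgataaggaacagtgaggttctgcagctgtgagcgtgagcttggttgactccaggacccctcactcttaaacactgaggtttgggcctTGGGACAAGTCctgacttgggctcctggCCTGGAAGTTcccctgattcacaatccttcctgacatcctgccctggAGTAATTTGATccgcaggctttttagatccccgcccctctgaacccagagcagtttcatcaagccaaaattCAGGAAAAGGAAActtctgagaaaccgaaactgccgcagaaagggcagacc

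Ifitm2 and Ifitm3 shared 4 such stretches, in the same order along both windows, while Ifitm1 shared 0 with either. The longest, CAGGAAAAGGAAA, has 13 bases. It begins at position -49 of Ifitm2 and position -1 of Ifitm3, where 0 is the annotated start, and 0.00913% of 32851 RefSeq promoter windows of the same length hold it. The other 3 have 10 or 11 bases and are held by 0.0183% to 0.0791% of the windows. Shared letters are a description of these windows and no evidence of binding or of shared control. The annotated start of Ifitm1 is also less certain. GENCODE M21, on the same build, gives Ifitm1 3 coding transcripts that start at 140967221, 140968028 and 140968040, against 1 transcript of 2 exons each for Ifitm2 and Ifitm3.

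Each library is a 3′ library, so that reads lie near the 3′ ends of transcripts. The values are read counts that the authors normalized and rounded to whole numbers. Their totals were 3599944 to 4320551 per library. The depth, estimated from how rounding makes some low whole numbers rarer or more common than others, was 2.50 to 5.30 megareads. A single read was therefore worth a value of 0.774 to 1.58. The targeted gene, Myd88 (chr9:119335934-119341411, minus strand), averaged 17 ± 10.4 in MyD88ko LPS and 196 ± 22.1 in wt LPS (SD, n = 3 each). Without LPS it averaged 10.7 ± 3.06 in MyD88ko and 100 ± 2.65 in wt. It was 13.0-fold lower in MyD88ko with LPS (adjusted p = 7.07e-05, limma) and 8.85-fold lower without (adjusted p = 0.000471, limma). All 10 mesenchymal markers had values in every library, with sums of 43583 to 141702. Of 6 endothelial markers, 0 had values in all libraries. Of 9 epithelial markers 5 had values throughout, and their sum was 4 to 33 in MyD88ko LPS, 38 to 53 in wt LPS, 5 to 9 in untreated MyD88ko and 13 to 393 in untreated wt, where the epithelial genes Cldn4 and Krt19 were high in replicates 1 and 3 and near or at 0 in replicate 2. Of 8 leukocyte markers, 3 had values throughout, with sums of 14 to 45 over the 12 libraries; Itgam, listed under 2 gene identifiers, was left out of both. Sums were 7 to 44 for 3 of 4 glial markers and 2 to 172 for 2 of 4 mesothelial markers, of which the highest lay in untreated wt, where Krt19 is in both lists. All 4 smooth muscle markers had values throughout, with sums of 9724 to 11332 in MyD88ko LPS, 8332 to 9127 in wt LPS, 7740 to 9267 in untreated MyD88ko and 4661 to 5512 in untreated wt.

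Ifitm1 (ENSMUSG00000025491, chr7:140967221-140969825, plus strand) was barely read in MyD88ko cells, with or without LPS, and clearly read in wt cells. Its values were 2, 4 and 5 in MyD88ko LPS, against 57, 62 and 33 in wt LPS. Every MyD88ko LPS library lay below every wt LPS library, as was the case, in the direction of lower values in MyD88ko, for 8.31% of the genes tested. The means were 3.67 ± 1.53 in MyD88ko LPS and 50.7 ± 15.5 in wt LPS (SD, n = 3 each). On the log2(value + 1) scale the difference was -3.48 ± 0.62 (SE), with a 95% confidence interval of -4.77 to -2.18. This is 11.1-fold lower in MyD88ko LPS, with an adjusted p of 0.00415 by limma over all genes tested. In this comparison 1.49% of the genes tested passed that threshold in either direction, and 1.04% with lower values in MyD88ko. Neither group of libraries entered the contrast on which the gene was chosen, although both genotypes did. In the authors' deposited table the ratio of MyD88ko LPS over wt LPS was 0.0903, with an adjusted p of 0.00121.

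Without LPS, Ifitm1 had values of 0, 0 and 3 in MyD88ko, against 29, 37 and 53 in wt. These are the values that chose the gene, and the groups did not overlap. In that contrast 9.89% of genes had MyD88ko libraries that all lay below the wt libraries and 1.88% were called, numbers given for scale only. The means were 1 ± 1.73 in untreated MyD88ko and 39.7 ± 12.2 in untreated wt (SD, n = 3 each), a difference of -4.64 on the log2(value + 1) scale. The fitted size depends on the pseudocount at such values, and was -2.90 with a pseudocount of 5.

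The low values rest on a handful of reads. With the estimated depths, the MyD88ko LPS libraries held 2 or 3, 4 or 5, and 5 reads of Ifitm1, against 64 or 65, 80 and 21 reads in the wt LPS libraries. The untreated MyD88ko libraries held 0, 0 and 3 or 4 reads, against 28, 37 and 43 in the untreated wt libraries. A count of 0 allows up to 3 reads, which in those MyD88ko libraries are values of 2.59 and 3.49. Taking the most reads for MyD88ko and the fewest for wt, the read rate was 13.9-fold lower with LPS in MyD88ko, with a 95% interval of 7.90 to 26.6 (13 reads in MyD88ko against 165 in wt). The interval covers counting error only.

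Ifitm1 showed no such gap between treatments. Its level stood highest in wt LPS, then untreated wt, then MyD88ko LPS and last untreated MyD88ko. The wt groups overlapped each other, and so did the MyD88ko groups, whereas untreated wt did not overlap MyD88ko LPS. On the log2(value + 1) scale, LPS minus untreated was 0.34 in wt and 1.50 in MyD88ko, both given without a test because they use the libraries that chose the gene. The value in MyD88ko rests on the few reads above, and was 0.55 with a pseudocount of 5.

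Pdgfra, a receptor gene that marks many gut fibroblasts, moved with Ifitm1 in the genotype comparisons. It averaged 129 in MyD88ko LPS and 451 in wt LPS, 3.41-fold lower in MyD88ko (adjusted p = 0.00222, limma), and 119 in untreated MyD88ko against 427 in untreated wt, 3.58-fold lower (adjusted p = 0.00162, limma). It was the 1 mesenchymal marker of 10 called in either comparison, and the sum of the 10 ran the other way with LPS, at 131110 to 141702 in MyD88ko LPS and 70515 to 116901 in wt LPS. Its part in the Ifitm1 difference was not tested. Of the 4 smooth muscle markers 0 were called in MyD88ko LPS against wt LPS, and 1, Cnn1, was 1.88-fold higher in untreated MyD88ko than in untreated wt (adjusted p = 0.0145, limma). At an unadjusted p under 0.05 (limma) the smooth muscle markers were 1 of 4 with LPS, against 1486 of all 12385 genes. Without LPS they were 3 of 4, against 15.5% of all genes. In such bulk libraries, fewer cells that express a gene and less of its RNA per cell cannot be told apart. Replicate 2 of untreated wt, with the lowest epithelial sum of its group, had an Ifitm1 value of 37, against 29 and 53 in replicates 1 and 3. That sum leaves out the epithelial genes Cdh1 and Krt18, which lack values in some libraries. They had 719 and 68 in replicate 3, 3 and 1 in replicate 1, and 0 and 0 in replicate 2. The part of epithelial cells in the Ifitm1 values was not tested.

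**Figure D1:**
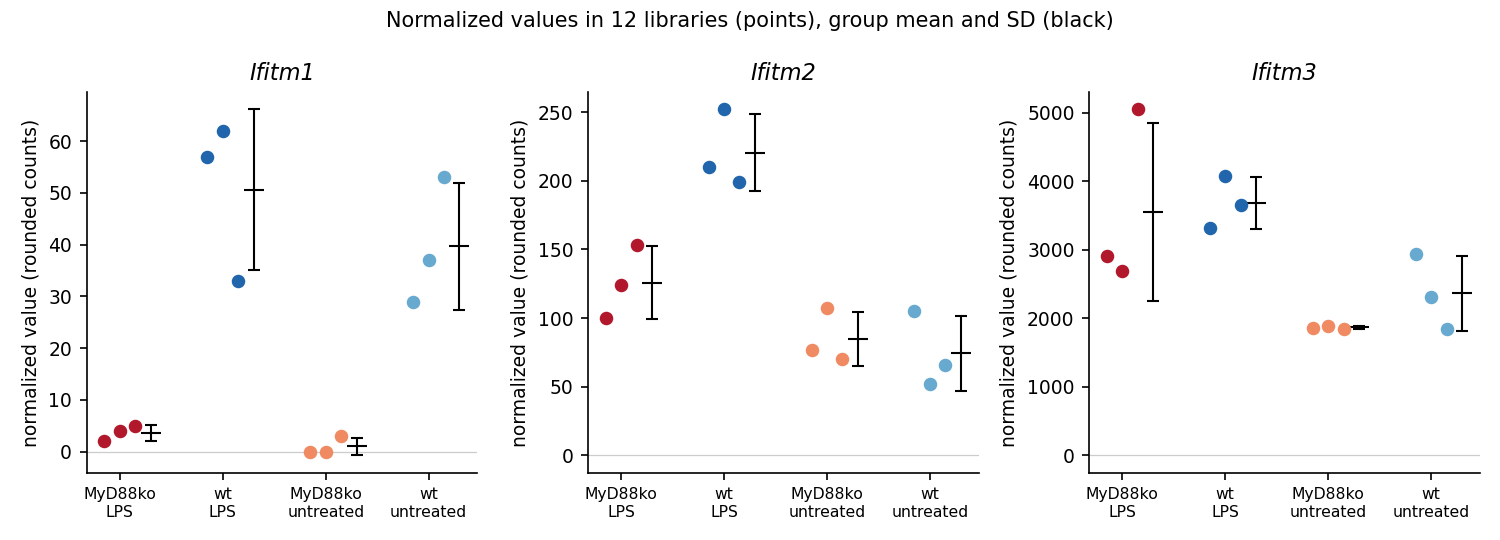
Normalized values of the 3 genes (vertical axes, starting near 0 and scaled for each gene) in the 4 groups, with a point for each library and the mean and SD of 3 libraries in black. Ifitm1 stays at 5 or less in all 6 MyD88ko libraries and at 29 or more in all 6 wt libraries, Ifitm2 is at 199 or more in wt LPS and at 153 or less in every other library, and Ifitm3 is between 1846 and 5051 throughout.

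Ifitm2 (ENSMUSG00000060591, chr7:140954837-140955987, minus strand) rose with LPS in wt cells. Its values were 210, 252 and 199 in wt LPS, against 105, 52 and 66 in untreated wt. The groups did not overlap, as for 17.4% of the genes tested in that direction. The means were 220 ± 28.0 in wt LPS and 74.3 ± 27.5 in untreated wt (SD, n = 3 each). The difference was 1.61 ± 0.28 (SE) on the log2(value + 1) scale, with a 95% interval of 1.02 to 2.19, or 3.05-fold, and the adjusted p was 0.000494 (limma). LPS changed 19.2% of the genes tested in wt cells by this measure, 9.55% with higher values, so that a call there is common. The authors' deposited table gives a ratio of 2.94 and an adjusted p of 0.0205. Of the 4 smooth muscle markers, Actg2, Myh11 and Cnn1 were also higher in wt LPS than in untreated wt (1.88-fold, 2.44-fold and 1.53-fold, adjusted p = 0.00157, 0.00393 and 0.0298, limma), and their part in the LPS differences was not tested. Untreated wt libraries take part in the contrast that chose the family, in which Ifitm2 itself differed by 0.22 (log2, MyD88ko minus wt).

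In MyD88ko cells, Ifitm2 had values of 100, 124 and 153 with LPS, against 77, 107 and 70 without. The groups overlapped. The means were 126 ± 26.5 in MyD88ko LPS and 84.7 ± 19.7 in untreated MyD88ko (SD, n = 3 each). The log2 difference of 0.57 ± 0.28 (SE) did not pass the threshold (adjusted p = 0.255, limma), and its 95% interval ran from -0.02 to 1.15. In this comparison 5.98% of the genes tested were called, 2.58% with higher values.

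Whether the LPS response of Ifitm2 differed between genotypes was tested directly. The response in MyD88ko minus that in wt was -1.04 ± 0.40 (SE) on the log2 scale, with a 95% interval of -1.87 to -0.21. It did not pass the threshold (adjusted p = 0.401, limma), as only 0.0161% of the genes tested did. With LPS, every MyD88ko library lay below every wt library, as for 8.31% of the genes tested. That difference, -0.82 ± 0.28 (SE), with a 95% interval of -1.40 to -0.23, is 1.76-fold lower in MyD88ko and did not pass either (adjusted p = 0.201, limma). In order of level, wt LPS stood above MyD88ko LPS without overlap, and MyD88ko LPS, untreated MyD88ko and untreated wt each overlapped the next.

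Ifitm3 (ENSMUSG00000025492, chr7:141009586-141010770, minus strand) was abundant in all libraries. It had higher values with LPS than without in both genotypes, with a call in MyD88ko only, which was not firm. Its values were 2914, 2692 and 5051 in MyD88ko LPS, against 1864, 1886 and 1852 in untreated MyD88ko. The groups did not overlap, as for 12.2% of the genes tested in that direction, and replicate 3 of MyD88ko LPS stood far above the other 2. The means were 3552 ± 1303 in MyD88ko LPS and 1867 ± 17.2 in untreated MyD88ko (SD, n = 3 each). The log2 difference was 0.87 ± 0.23 (SE), with a 95% interval of 0.38 to 1.35, or 1.83-fold, and passed the threshold (adjusted p = 0.0301, limma). Without replicate 3 of MyD88ko LPS it was 0.58 and did not pass (adjusted p = 0.110, limma). It also did not pass without replicate 1, 2 or 3 of untreated MyD88ko (adjusted p = 0.0917, 0.0934 and 0.0973), and in the authors' deposited table the adjusted p is 0.603. Myh11 was the 1 smooth muscle marker of 4 called with LPS in MyD88ko (2.36-fold higher, adjusted p = 0.0143, limma), and its part was not tested.

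In wt cells Ifitm3 had values of 3315, 4072 and 3657 with LPS, against 2937, 2311 and 1846 without. These groups did not overlap either, as for 17.4% of the genes tested in that direction. The means were 3681 ± 379 in wt LPS and 2365 ± 547 in untreated wt (SD, n = 3 each). The log2 difference of 0.66 ± 0.23 (SE), with a 95% interval of 0.17 to 1.14, or 1.58-fold, lay just outside the threshold (adjusted p = 0.0525, limma). It passed under 4 of the alternative settings, and without replicate 1 or 3 of MyD88ko LPS or replicate 1 of untreated wt (adjusted p = 0.0480, 0.0140 and 0.0348, limma). Both LPS comparisons use libraries of the contrast that chose the family, in which Ifitm3 differed by -0.31 (log2, MyD88ko minus wt).

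Genotype did not separate the Ifitm3 libraries. With LPS, the MyD88ko and wt groups overlapped, and MyD88ko minus wt was -0.11 ± 0.23 (SE) on the log2 scale (adjusted p = 0.910, limma). The 95% interval, -0.59 to 0.38, leaves room for a modest difference in either direction. The difference between the LPS responses, MyD88ko minus wt, was 0.21 ± 0.33 (SE), with an interval of -0.48 to 0.90 (adjusted p = 0.879, limma). In order of level the groups were wt LPS, MyD88ko LPS, untreated wt and untreated MyD88ko, and each overlapped the next.

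**Figure D2:**
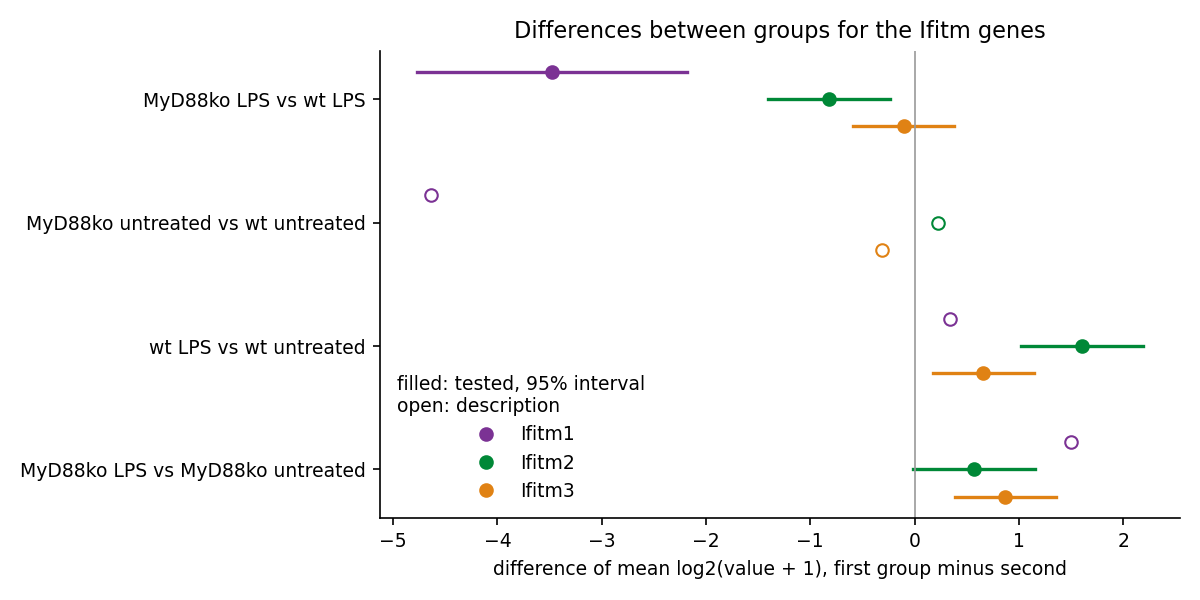
Differences of mean log2(value + 1) between groups (horizontal axis, first group named minus the second) for the 3 genes in 4 comparisons, with filled points and 95% intervals where a test was made and open points where the values are a description. With LPS, the interval of Ifitm1 for MyD88ko against wt lies at -4.77 to -2.18, that of Ifitm2 at -1.40 to -0.23 and that of Ifitm3 at -0.59 to 0.38.

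The 3 genes stood at different levels, with Ifitm3 far above the other 2 in every group. Divided by gene length, as in the authors' second set of values, Ifitm3 averaged 2.55 normalized reads per base in MyD88ko LPS, 2.64 in wt LPS, 1.34 in untreated MyD88ko and 1.70 in untreated wt. Ifitm2 averaged 0.0896, 0.157, 0.0604 and 0.0530 normalized reads per base in the same order of groups. Ifitm1 averaged 0.00252, 0.0349, 0.000688 and 0.0273. By these means per length, Ifitm3 ranked 62 of 12385 genes in MyD88ko LPS, 46 in wt LPS, 143 in untreated MyD88ko and 83 in untreated wt. Ifitm1 ranked 10896 in MyD88ko LPS and 3821 in wt LPS. Since 3′ reads come from transcript ends whatever the length, a value per base understates long transcripts, but the gene lengths of the 3 members are close.

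As a share of Ifitm3 in the same library, which does not depend on scaling, Ifitm1 was again lower in MyD88ko. Ifitm1 was 0.0686%, 0.149% and 0.0990% of Ifitm3 in the MyD88ko LPS libraries, against 1.72%, 1.52% and 0.902% in the wt LPS libraries. These groups do not overlap. With 1 added to each value, which draws ratios at low values toward each other, the log2 ratio of Ifitm1 to Ifitm3 differed by -3.37 between MyD88ko LPS and wt LPS, that of Ifitm1 to Ifitm2 by -2.66 and that of Ifitm2 to Ifitm3 by -0.71. For each, the exact two-sided permutation test gave p = 0.1, the smallest that 3 against 3 libraries allow, and 0.1 after adjustment over the 3 ratios. Over the 12 libraries, which share treatment and genotype, Pearson r of log2 values was 0.784 between Ifitm2 and Ifitm3, 0.395 between Ifitm1 and Ifitm3 and 0.303 between Ifitm1 and Ifitm2, given as a description.

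Related sequence limits how exactly reads can be assigned. The longest identical stretch between GENCODE transcripts is 69 bases for Ifitm2 and Ifitm3, 64 for Ifitm1 and Ifitm3 and 40 for Ifitm1 and Ifitm2. In the last 300 bases, where 3′ reads fall, no stretch of 30 bases is shared among the 3 members. Such stretches are shared with 2 other genes for Ifitm1 (Ifitm7 and the predicted gene Gm7676), 6 for Ifitm2 and 2 for Ifitm3, and 0 of these have values in the tables. How reads with several places were counted is not given in the sources used here, so the levels are uncertain to that extent. Ifitm10 (chr7:142325837-142373753, minus strand), a more distant relative, had values of 3, 4 and 0 in MyD88ko LPS, 6, 2 and 3 in wt LPS, 3, 0 and 0 in untreated MyD88ko and 5, 6 and 1 in untreated wt, too low to be tested. Ifitm5, Ifitm6 and Ifitm7 were not analysed here.

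Among 50 other interferon-stimulated genes, 42 were tested. In MyD88ko LPS against wt LPS, 0 were higher and 3 lower, where 1.04% of all genes tested were lower. An unadjusted p under 0.05 (limma), in either direction, was reached by 16 of the 42, against 1486 of all 12385 genes. The median log2 difference was -0.61 against -0.00 over all genes tested, and the difference of Ifitm1 was larger than that of all 42. Ly6e, a membrane-anchored gene of the antiviral response, had values of 237, 161 and 129 in MyD88ko LPS, against 411, 381 and 361 in wt LPS. It was 2.25-fold lower (adjusted p = 0.0111, limma). Zbp1, a sensor of nucleic acids in Z form, had 11, 2 and 2 in MyD88ko LPS, against 56, 50 and 32 in wt LPS, 9.61-fold lower (adjusted p = 0.0124, limma). Bst2, which encodes tetherin, an inhibitor of virus release, had 584, 370 and 286 in MyD88ko LPS, against 735, 864 and 968 in wt LPS, 2.15-fold lower (adjusted p = 0.0385, limma). None of these groups overlapped, as for 8.31% of all genes tested in that direction. The count of 3 is not firm, as it was 0 without replicate 2 of MyD88ko LPS or without replicate 1 of wt LPS, and 1 without replicate 3 of MyD88ko LPS or replicate 2 of wt LPS. Without LPS, 0 of the 42 were called between MyD88ko and wt, with a median of -0.10, against 1.88% of all genes tested. At an unadjusted p under 0.05 (limma) these were 5 of the 42 and 15.5% of all genes. Among the 5 was Zbp1, with 2, 1 and 1 in untreated MyD88ko, against 15, 14 and 5 in untreated wt. It was 4.93-fold lower without a call (adjusted p = 0.0913, limma). Its groups did not overlap, as for 9.89% of all genes in that direction, so Zbp1 shared with Ifitm1 a gap between genotypes under both conditions.

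LPS raised 12 of the 42 and lowered 2 in wt cells, with a median of 0.71, where 19.2% of all genes tested were called and 9.55% were higher. Ifitm2 was thus called along with a minority of the list. Gbp5, a guanylate-binding protein gene, had 48, 69 and 52 in wt LPS, against 2, 0 and 0 in untreated wt (adjusted p = 0.000126, limma). Ly6e rose 2.63-fold (adjusted p = 0.000368), Cxcl10, which encodes a chemokine for T cells, 7.98-fold (adjusted p = 0.000412) and Bst2 2.81-fold (adjusted p = 0.000592, all by limma). Irgm1 and Irgm2, immunity-related GTPase genes, were the 2 that fell. In MyD88ko cells LPS raised 1 of the 42, Cxcl10, which averaged 58 in MyD88ko LPS and 4.33 in untreated MyD88ko, 10.2-fold higher (adjusted p = 0.000534, limma), and lowered 0, with a median of 0.24, where 5.98% of all genes were called. Without replicate 3 of MyD88ko LPS, the library in which Ifitm3 stood high, 4 of the 42 were called. The difference between the LPS responses was called for 0 of the 42, with a median of -0.22, against 0.0161% of all genes tested. At an unadjusted p under 0.05 (limma) these were 7 of the 42 and 9.18% of all genes.

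**Figure D3:**
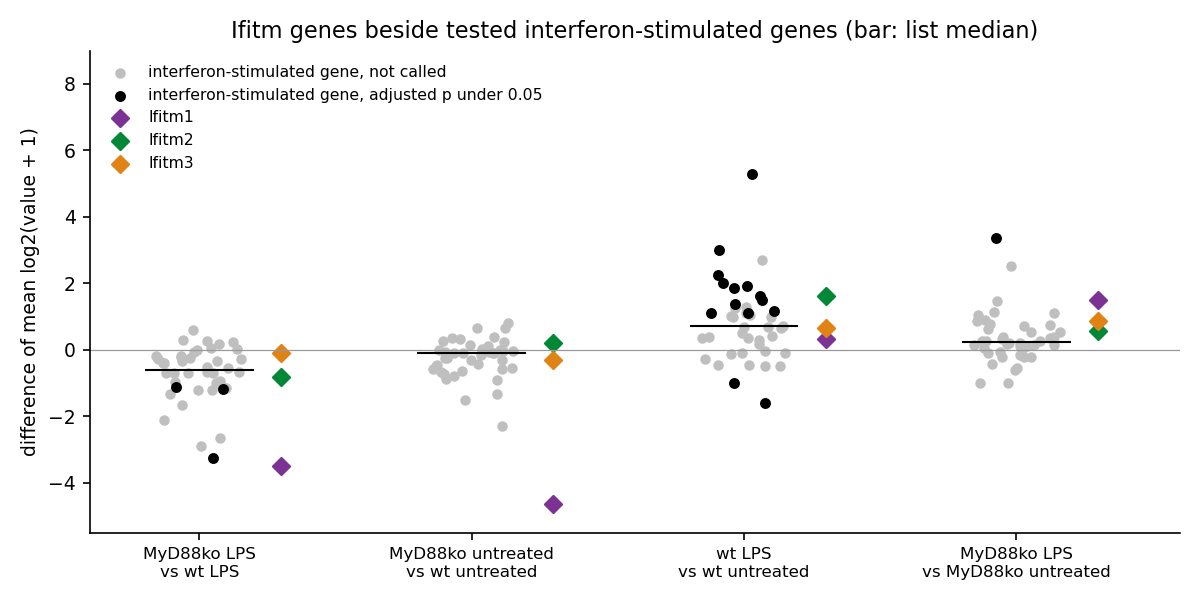
Differences of mean log2(value + 1) for 42 tested interferon-stimulated genes (circles, black where the adjusted p is under 0.05, bar at the list median) and for Ifitm1, Ifitm2 and Ifitm3 (diamonds) in 4 comparisons. In MyD88ko LPS against wt LPS, Ifitm1 at -3.48 lies under all the circles, Ifitm2 at -0.82 is near the list median of -0.61 and Ifitm3 at -0.11 is above it.

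Genes that carry the interferon signal were called after LPS but not between genotypes, a contrast that was not itself tested. Of 12 genes for receptors, kinases and transcription factors of the interferon pathway, 11 were tested. Between MyD88ko and wt, 0 of the 11 were called with or without LPS, where 1.49% and 1.88% of all genes were called. At an unadjusted p under 0.05 (limma) they were 3 of 11 with LPS, against 1486 of all 12385 genes, and 2 of 11 without, against 15.5%. In wt cells LPS raised 5 of the 11 and lowered 0, where 9.55% of all genes were higher, among them Ifngr1, a subunit of the interferon gamma receptor (2.11-fold), and the kinase genes Tyk2 (2.34-fold), Jak1 (1.92-fold) and Jak2 (1.73-fold). The calls of Jak2 and Tyk2 were lost under 10 and 5 of 22 alternatives, among them leaving out replicate 1 or 2 of wt LPS or replicate 1 of untreated wt. In MyD88ko cells LPS raised 1 of the 11, where 2.58% of all genes were higher. This was Irf1, an interferon-induced transcription factor gene, with values of 206, 141 and 227 in MyD88ko LPS against 111, 93 and 103 in untreated MyD88ko (1.83-fold, adjusted p = 0.0388, limma). The call of Irf1 was lost under 7 of 22 alternatives, including without replicate 1 or 3 of MyD88ko LPS or any replicate of untreated MyD88ko. Of 8 genes of the route by which TLR4 induces interferon, 7 were tested. There 1 was called for LPS in wt, where 19.2% of all genes were called. It was Ticam1, which encodes TRIF, 2.45-fold higher in wt LPS than in untreated wt (adjusted p = 0.00836, limma). Without replicate 1 of wt LPS that call was lost. In any other comparison 0 of the 7 were called, where 0.0161% to 5.98% of all genes were.

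The gp130 and STAT3 pathway, a second route to genes of the acute response, showed 3 of 10 tested members lower in MyD88ko LPS than in wt LPS and 0 higher, where 1.04% of all genes were lower. Il6, the cytokine, had values of 8, 4 and 5 in MyD88ko LPS, against 50, 54 and 77 in wt LPS (9.32-fold lower, adjusted p = 0.00539, limma). Osmr, the oncostatin M receptor gene, averaged 57.7 in MyD88ko LPS and 155 in wt LPS (2.65-fold lower, adjusted p = 0.00212). Lifr, the receptor gene for leukemia inhibitory factor, averaged 20 in MyD88ko LPS and 58.7 in wt LPS (2.86-fold lower, adjusted p = 0.0470), a call lost under 16 of 22 alternatives, among them leaving out any single library but replicate 3 of MyD88ko LPS. Without LPS 0 of the 10 were called between genotypes, and 3 had an unadjusted p under 0.05 (limma), against 15.5% of all genes. LPS raised Il6 (6.33-fold) and Jak1 and lowered Osmr (2.13-fold) in wt cells, and lowered Osmr (3.09-fold) in MyD88ko cells.

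Of 9 genes whose products modify, bind or move IFITM proteins, such as the palmitoyl transferase gene Zdhhc20 and the ubiquitin ligase gene Nedd4, 0 were called in MyD88ko LPS against wt LPS, and 1 had an unadjusted p under 0.05 (limma), against 1486 of all 12385 genes. With LPS in wt, 1 of the 9 was called higher and 1 lower, a share near the 19.2% called of all genes. In MyD88ko, 1 was called higher with LPS, where 5.98% of all genes were called. Between untreated genotypes 1 was called lower in MyD88ko, where 1.88% of all genes were called. Cd81, a tetraspanin gene, was higher with LPS in wt (1.68-fold, adjusted p = 0.0168, limma) and in MyD88ko (1.64-fold, adjusted p = 0.0484, limma). Cd9, another tetraspanin gene, had values of 86, 68 and 114 in wt LPS, against 2087, 250 and 1380 in untreated wt (10.2-fold lower, adjusted p = 0.00234). In untreated MyD88ko its values were 201, 112 and 125, lower than in untreated wt (6.31-fold, adjusted p = 0.0474, limma). Its high values lay in replicates 1 and 3 of untreated wt, the libraries that also held epithelial genes, and the part of those genes in the Cd9 difference was not tested. The calls of Cd9 between untreated genotypes and of Cd81 in MyD88ko were lost under 16 and 14 of 22 alternatives.

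The 5 genes whose log2 values followed Ifitm1 most closely over the 12 libraries, among 9263 protein-coding genes with a mean of at least 20, were Saa3, Mmp9, Rerg, Gda and Fgf7, with Pearson r of 0.980, 0.949, 0.942, 0.938 and 0.934. The points share genotype, treatment and depth, and r describes them only. Saa3, an acute-phase serum amyloid gene, had values of 23, 48 and 82 in MyD88ko LPS, 9539, 6130 and 6455 in wt LPS, 0, 5 and 17 in untreated MyD88ko and 5480, 1529 and 5461 in untreated wt. It shared with Ifitm1 a gap between genotypes under both conditions, at a far higher level in wt. Fgf7, a growth factor gene for epithelium, had 15, 6 and 10 in MyD88ko LPS, 168, 131 and 110 in wt LPS, 0, 0 and 1 in untreated MyD88ko and 53, 33 and 43 in untreated wt. Mmp9, a gelatinase gene, averaged 44 in MyD88ko LPS, 315 in wt LPS, 22.7 in untreated MyD88ko and 177 in untreated wt. Gda, the guanine deaminase gene, averaged 5, 65.3, 1.33 and 23.3 in the same order, and Rerg, a small GTPase gene, averaged 3, 37.7, 1.67 and 38.

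**Figure D4:**
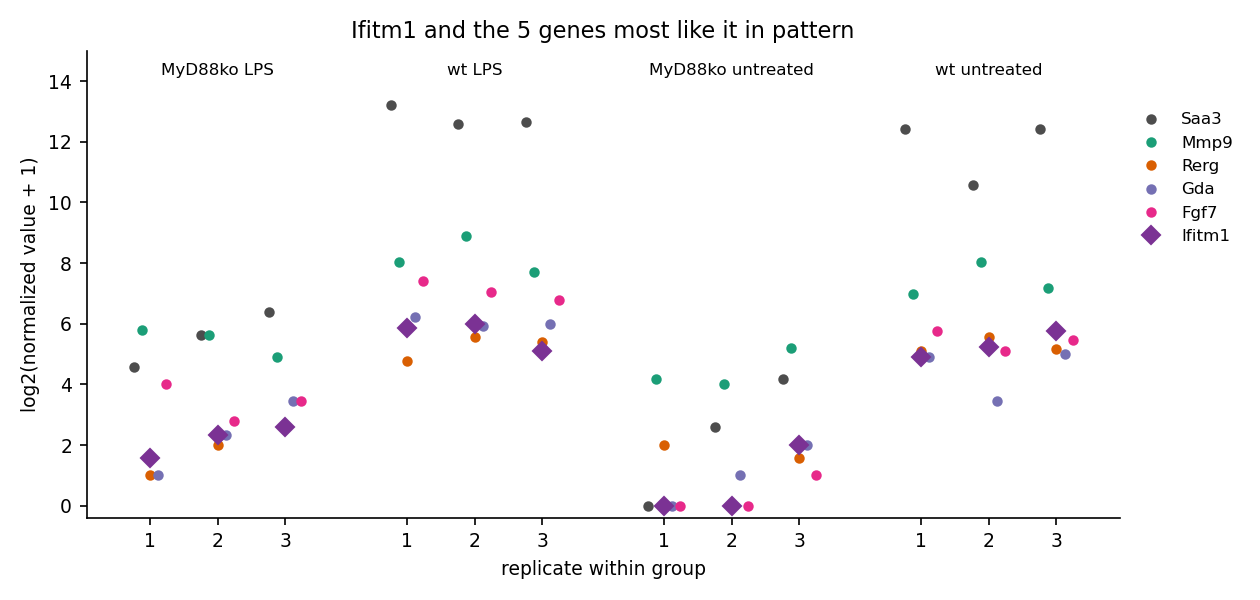
Log2(normalized value + 1) of Ifitm1 (diamonds) and of the 5 genes most like it in pattern (circles, offset sideways for sight) in each of 12 libraries, grouped by genotype and treatment. All 6 genes are lower in the MyD88ko libraries than in the wt libraries of the same treatment, with Saa3 highest in wt and Ifitm1 at 5 or less throughout MyD88ko.

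The 5 genes most like each of the other members in pattern had r of 0.937 to 0.919 for Ifitm2 (Taok3, Rab14, Foxo3, Yaf2 and Trim28) and 0.935 to 0.922 for Ifitm3 (Fam129b, Plxna1, Ubap2, Mllt6 and Wdr26). Taok3, a kinase gene, averaged 111 in MyD88ko LPS, 130 in wt LPS, 67 in untreated MyD88ko and 64 in untreated wt. Fam129b averaged 955, 1025, 377 and 425 in the same order, with its highest value, 1576, in replicate 3 of MyD88ko LPS, as for Ifitm3. None of the 5 nearest genes was shared between 2 members.

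Within 200 kb of the 3 members the tables list 16 other genes, of which 13 were tested. Between MyD88ko and wt, 0 of the 13 were called with LPS and 0 without, near the 1.49% and 1.88% called of all genes tested. With LPS, the log2 differences of the 13 ran from -2.30, with an SE of 1.14, for Urah to 0.62, with an SE of 0.29, for Pgghg. With LPS in wt cells 2 rose and 1 fell, a share near the 19.2% called of all genes. Psmd13, a proteasome subunit gene, rose 2.33-fold (adjusted p = 0.000885) and the pseudogene Gm5905 rose 3.06-fold (adjusted p = 0.000654). Pgghg, a gene of collagen sugar breakdown, was 1.84-fold lower (adjusted p = 0.0376, all by limma), a call lost under 6 of 22 alternatives, including without replicate 1 or 3 of wt LPS or replicate 1 or 2 of untreated wt. In MyD88ko cells LPS raised 1 of the 13, Gm5905, with 2.92-fold higher values (adjusted p = 0.00329, limma), where 5.98% of all genes were called. As a pseudogene, Gm5905 may share reads with its parent gene.

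**Figure D5:**
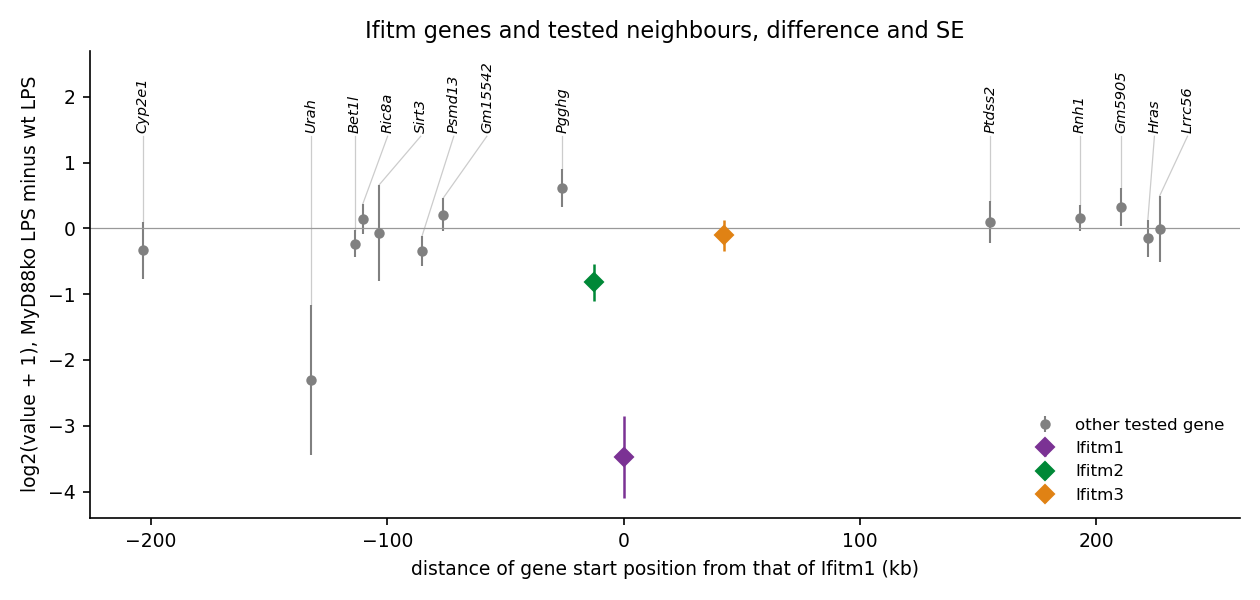
Difference of mean log2(value + 1), MyD88ko LPS minus wt LPS (vertical axis, bars are SE), against distance of each gene's lower coordinate from that of Ifitm1 in kb, for the 3 members (diamonds) and 13 tested neighbours (circles). Ifitm1 at -3.48 was called and 0 of the 13 neighbours were, where 1.49% of all genes tested were called.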

How the data were processed

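Gene-level 3′ RNA-seq tables for 4 comparisons were used, each with values for 6 of the 12 libraries. Per the submitters' processing notes, the tools were TopHat2, Bowtie2 and DESeq and the genome build mm10; no versions or roles are given. The deposited values are scores, that is, read counts normalized by the authors and rounded to whole numbers, and a second set of scores is the same divided by gene length. Where 2 tables give the same library and gene, which is so for 166719 values, 0 differ. The deposited fold is a ratio of means to which 1 was added, and the deposited p-values are the authors' own. Depth was estimated here from the uneven frequencies that rounding gives to low values.

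Log2(value + 1) was tested with limma 3.58.1 in R 4.3.3 (limma-trend, robust, all 12 libraries, a coefficient per group, 8 residual degrees of freedom, two-sided). Genes needed values in all libraries and a mean of at least 10 in a group. A call is a Benjamini-Hochberg adjusted p under 0.05 over the 12385 genes tested. Folds are on the log2(value + 1) scale, which understates low genes.

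Members and lists were chosen with earlier results of these data known. Named genes are the members, other Ifitm genes, Myd88, up to 4 called genes of each list and comparison with the smallest p (any member of lists of 12 or fewer), up to 4 neighbours within 200 kb with the smallest p, and the 5 genes most like each member. Pdgfra, other mesenchymal markers and the epithelial markers were named, and shared promoter stretches sought, after values were seen. Alternatives were other scalings, filters, pseudocounts and fits, a replicate block, and leaving out libraries. Some members of the gene lists are counted but not reported here by name.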

Additional observations from a re-analysis of the deposited data

How the results depend on the processing

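The lower Ifitm1 value in MyD88ko LPS than in wt LPS kept its direction and its call under all 22 alternatives, at -3.75 to -2.66 on the log2 scale with adjusted p of 0.000444 to 0.0394 (limma). The rise of Ifitm2 with LPS in wt did too (1.39 to 2.05, adjusted p 0.000283 to 0.00496). Ifitm3 in wt LPS against untreated wt passed the threshold with TMM-like rescaling (0.67, adjusted p = 0.0492), quantile normalization (0.85, 0.0209), a mean of at least 50 (0.66, 0.0460) and only the compared groups (0.66, 0.0485), and ranged from 0.49 to 0.83 with single libraries left out. The rise of Ifitm3 in MyD88ko did not pass in limma without trend (0.87, adjusted p = 0.102) and ranged from 0.58 to 1.04 with single libraries left out. With a pseudocount of 5, Ifitm1 differed by 0.55 (MyD88ko LPS against untreated), by 0.24 (difference of LPS responses) and by -2.90 (untreated MyD88ko against wt), since a larger pseudocount shrinks low values. The Ifitm3 difference between MyD88ko LPS and wt LPS, near 0 to begin with, ranged from -0.39 to 0.065 with single libraries left out, and turned positive without replicate 1 (0.0075) or 2 (0.065) of MyD88ko LPS. The difference of its LPS responses ranged from -0.074 to 0.38 and turned negative without replicate 3 of MyD88ko LPS (-0.074). The untreated Ifitm2 difference, MyD88ko minus wt, ranged from -0.00033 (without replicate 2 of wt) to 0.50, and was 0.67 without wt replicates 1 and 3 together. Cause was not tested for the other shifts. Nothing given says that the replicate numbers pair the libraries, and same-numbered deviations correlated at -0.114 to 0.171 over the comparisons. With the replicate block, Ifitm1 in MyD88ko LPS against wt LPS was -3.48 (adjusted p = 0.00414), no call of a member changed, and calls over all genes were 206 for that comparison, against 185 without the block. Every library correlated best with its own number in wt LPS against untreated wt only (6 of 6, r of 0.058 to 0.171). Whether those libraries were paired is not known. Over the alternatives, calls over all genes ran from 85 to 206 in MyD88ko LPS against wt LPS (185 as reported), 973 to 2722 for LPS in wt (2380), 337 to 791 for LPS in MyD88ko (741), 0 to 44 for the difference of responses (2) and 36 to 416 between untreated genotypes (233). Calls among the 42 interferon-stimulated genes ran from 0 to 5 in MyD88ko LPS against wt LPS (5 with a pseudocount of 5, 3 as reported), from 9 to 17 for LPS in wt (14) and from 1 to 4 for LPS in MyD88ko (1). Scaling moved the median of all genes by at most 0.04. At 0 to 5 reads of Ifitm1 in MyD88ko libraries, depth limits any LPS effect there.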
